A study of Tulipa gesneriana with 15 samples.

Results

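A set of 150 tulip genes was higher from partial opening of the flower until early senescence than in the bud or once senescence was advanced. The 150 genes were chosen by these levels among 76388 identifiers of an RNA sequencing table of wild-type Tulipa gesneriana flowers at 5 stages, namely buds, partial and full blooming, and early and late senescence. The labels name no treatment and give stage as the difference between the groups. Each stage has 3 libraries of whole flowers, so RNA of every floral organ was measured together. Whether these came from separate plants is not stated, so the tests measure only the spread between libraries, which may be technical.

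The petal-like organs of a tulip, its tepals, open by expansion of cells formed in the bud and stay turgid while the flower is open. In senescing petals of many flowers, cell walls, membranes and proteins are broken down and sugars, amino acids and minerals move to other parts of the plant. The open flower is thus a period of its own between growth and dismantling, and genes raised throughout it may belong to any of its organs. The table pairs its identifiers with no gene name, sequence, position or function, so the genes are described by their levels, by their rank in the selection and, for 4 of them, by identifier. In a whole flower, fewer cells of a type and less RNA per cell cannot be told apart.

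Membership was decided by measured values alone. The level of a stage was the mean over its 3 libraries of log2(FPKM + 1), where FPKM is fragments per unit of transcript length and library size. Partial blooming, full blooming and early senescence are called the raised stages here, and buds and late senescence the end stages. A gene could be chosen when its mean FPKM was 5 or more in each raised stage, which 15934 genes met. Of these, 171 were left out because all 3 late senescence libraries were under 0.1 FPKM, and 15763 remained. The score of a gene was its lowest raised stage minus its higher end stage, and the 150 highest scores were taken. Among the genes left out, 29 had a score at or above that of the last member, the highest being 3.58.

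Scores fell off steeply and had no gap at the edge of the set. The highest score was 6.86 log2 units, the median 1.49 and the last 1.15. Only 8 members scored above 3 and 23 above 2. The last 2 members scored 1.162 and 1.152, and the first 2 genes outside scored 1.152 and 1.149. Over all 15763 genes that could be chosen, the median score was -0.57, and 2342 genes scored above 0. The edge of the set was thus set by its size, and genes just outside had nearly the same score.

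Libraries had similar sums of FPKM and differed in a few respects that touch the set. Summed FPKM ranged from 861035 to 1094997 and was highest in the 3 late senescence libraries, and 35738 to 42158 genes were at 1 FPKM or more. The number of reads behind these values is unknown. Across genes, log2 values correlated at a median of 0.94 within a stage and 0.81 between stages, with a lowest value of 0.87 within a stage. Full blooming replicate 3 stood apart: its mean correlation was 0.88 with the other 2 libraries of its stage, which correlated at 0.96, and 0.91 with partial blooming. Bud replicate 2 correlated with late senescence at a mean of 0.73, against 0.67 and 0.70 for bud replicates 1 and 3. Counts that moved by over 1.5 times without a library are given with and without it.

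The level of the set as a whole was several-fold higher in the raised than in the end stages. The middle member was at 6.52, 6.39 and 9.78 FPKM in the 3 bud libraries. It was at 61.9, 58.3 and 55.0 FPKM in partial blooming, at 75.2, 76.7 and 49.8 in full blooming and at 48.5, 52.7 and 62.5 with early senescence. The late senescence libraries had it at 9.09, 7.80 and 12.5 FPKM. Every raised library thus lay above every end library in its middle member, which the selection fixes. The median over the 15763 genes that could be chosen stayed between 15.7 and 17.6 FPKM in all 15 libraries.

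**Figure D1:**
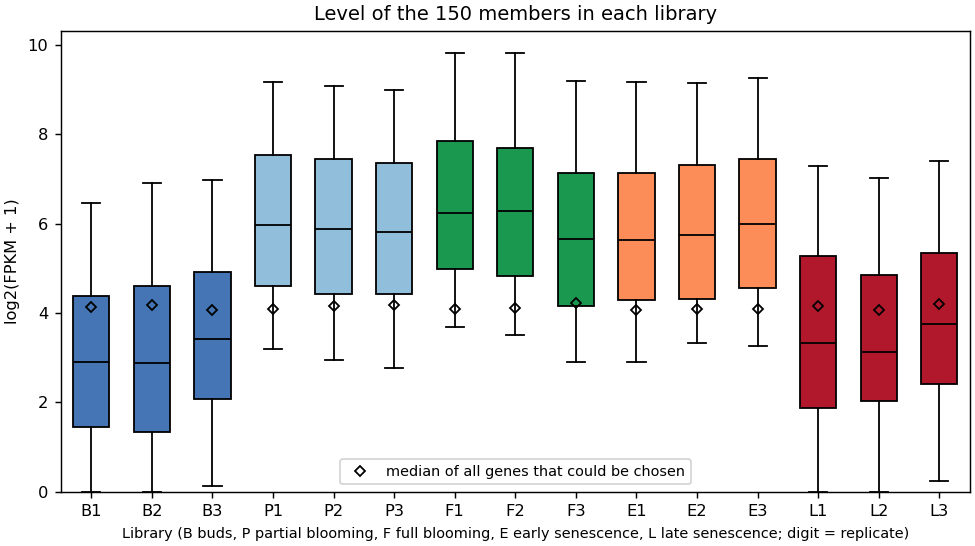
Level of the 150 members in each library as log2(FPKM + 1), with boxes for the middle 50% of members, whiskers from the 5th to the 95th percentile and diamonds for the median of all 15763 genes that could be chosen. The medians of the 9 raised libraries lie above those of the 6 end libraries, although some of their boxes overlap. The median of full blooming replicate 3 lies under those of the other 2 libraries of its stage, while its diamond does not.

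As a share of all expression the set was small. Its share of summed FPKM was 0.421% ± 0.0947 (SD, n = 3) for buds and 2.64% ± 0.183 for partial blooming. The share was 3.28% ± 0.913 for full blooming and 2.52% ± 0.204 for early senescence, and it came down to 0.528% ± 0.0935 for late senescence. Full blooming had the widest spread, with shares of 3.82%, 3.78% and 2.22% in replicates 1, 2 and 3. The 10 members most abundant in full blooming held 44.3% ± 1.54 of the set's FPKM at that stage and 32.4% ± 3.69 in buds. These shares follow from the selection and are descriptions.

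Members covered a wide range of abundance. In full blooming their means ran from 5.57 to 2918 FPKM, with a median of 71.8. In all raised stages 47 members were at 100 FPKM or more, and 22 were under 20 FPKM. The most abundant member ranked 29 by score. It was at 335, 586 and 482 FPKM in buds, at 1570, 1823 and 1784 in partial blooming and at 3461, 3585 and 1707 in full blooming. It was at 2355, 2376 and 2301 FPKM in early senescence and at 351, 407 and 302 in late senescence. Its raised libraries lay far above its end libraries, although the latter were still at 302 FPKM or more.

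Few members were fully silent at the ends. In all 3 bud libraries 10 members were under 1 FPKM, and in all 3 late senescence libraries 3 members were. No member was under 1 FPKM in all 6 end libraries, while 54 members had means of 10 FPKM or more in both end stages. At least 1 bud library was listed at 0 for 23 members, and all 3 for 1 member. For late senescence these numbers were 26 and 0, where the selection removed genes at 0 throughout. An exact 0 may be a failed estimate, so it is given only as listed. In the raised stages 3 members were also listed at 0 in some library, so their means rest on the other libraries.

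For most members the libraries of the raised and end stages did not overlap. All 9 raised libraries lay above all 6 end libraries in 129 of the 150 members, against 4.53% of the genes that could be chosen, a contrast the selection itself used. Overlap in the other 21 members came from several libraries. Partial blooming replicate 2 lay at or under an end library in 9 members, and full blooming replicates 2 and 3 in 7 each. Without full blooming replicate 3, 18 members overlapped.

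**Figure D2:**
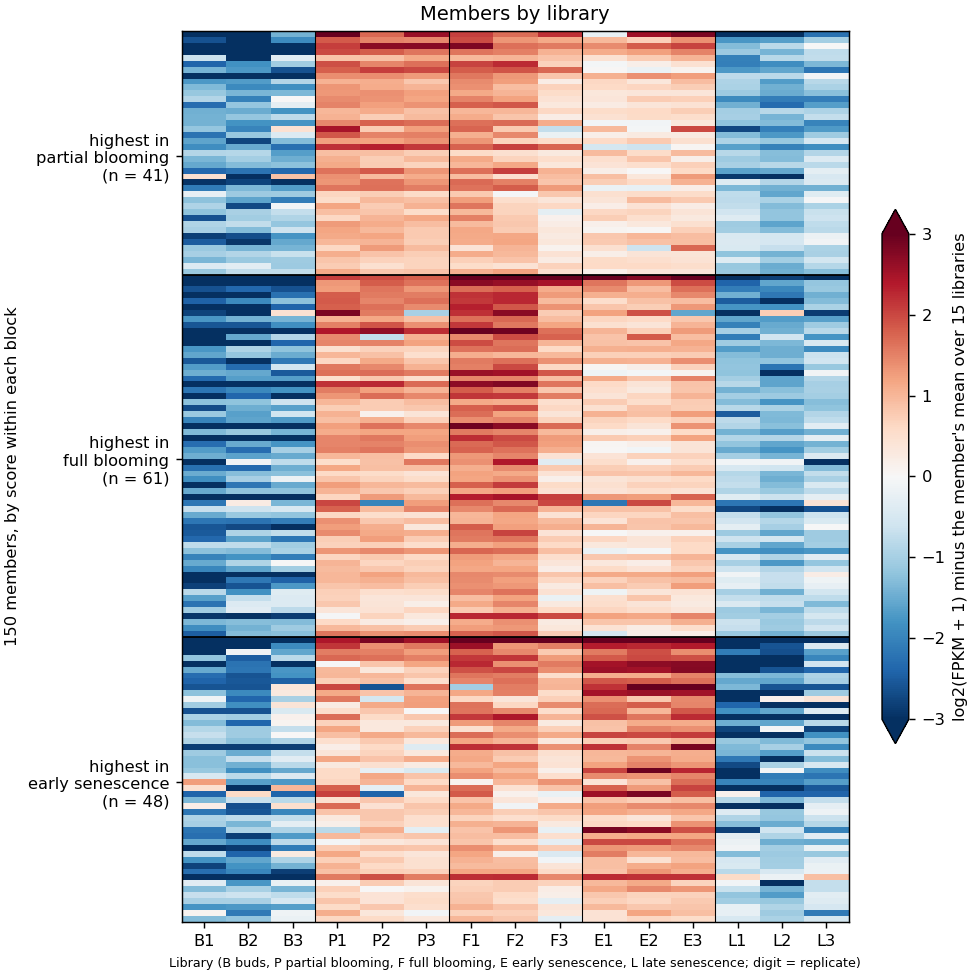
Heat map of log2(FPKM + 1) minus each member's mean over the 15 libraries, with 1 row per member, grouped by the raised stage with the highest mean and sorted by score, and 1 column per library; red is above and blue under the member's mean, with colours capped at 3 log2 units. Raised libraries are red and end libraries blue in nearly all rows, and full blooming replicate 3 is paler than its neighbours in the upper 2 blocks.

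Tests were run with limma on log2(FPKM + 1) over the 47326 genes at 1 FPKM or more in at least 3 libraries, with p-values adjusted over all of them by the Benjamini-Hochberg method and calls at an adjusted p under 0.05. All 150 members passed that filter, which their raised stages ensured. On opening, from buds to partial blooming, 132 members were called higher, against 6.62% of all tested genes. From early to late senescence 142 were called lower, against 9.90% of all tested genes. Both calls were made for 128 members, and the share of all tested genes with both was not computed. The selection used these contrasts, so nothing is read from the counts.

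The members with the largest rise out of the bud differed in how far they fell back. F01.PB17424 was at 5.30, 6.43 and 3.42 FPKM in buds and at 1352, 1755 and 1329 in partial blooming. Full blooming gave 2138, 2166 and 1253 FPKM, and early senescence 2154, 2094 and 2108. By late senescence it was still at 681, 406 and 851 FPKM. Its lowest raised stage lay 7.96 log2 units above buds but only 1.25 above late senescence, so that it ranked 123. Its late senescence libraries lay far above those of buds and under all raised libraries.

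F01.PB10835, which ranked 15, was close to absent from buds, listed at 0, 0.14 and 0 FPKM. It was at 207, 323 and 328 FPKM in partial blooming, at 341, 153 and 143 when fully open and at 130, 172 and 199 in early senescence. Late senescence left 19.2, 27.3 and 48.0 FPKM. Its stage means thus went down from partial blooming onward, but the libraries of neighbouring raised stages overlapped. With 2 of 3 bud libraries at 0, no fold over buds is given.

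The members with the largest fall into late senescence were the top 2 by score. F01.PB61438 was at 3.53, 5.34 and 0.04 FPKM in buds and at 319, 421 and 348 in partial blooming. Full blooming gave 901, 616 and 586 FPKM, and early senescence 618, 779 and 862. The late senescence libraries list it at 0, 0 and 1.34 FPKM. Bud replicate 3 was as low as the late senescence libraries, while the other 2 buds were above them. Its lowest raised stage, partial blooming, lay 6.86 log2 units above buds and 8.09 above late senescence.

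F01.PB16570 was at 9.30, 11.7 and 10.6 FPKM in buds, and its bud libraries differed less from each other than those of the top member. It was at 483, 442 and 397 FPKM in partial blooming, at 1562, 2319 and 1081 when fully open and at 1064, 771 and 1084 in early senescence. The late senescence libraries list it at 0, 15.3 and 0 FPKM. All partial blooming libraries lay under all full blooming and early senescence libraries, and the single late library with signal lay slightly above the buds. Its lowest raised stage lay 7.44 log2 units above late senescence, and 8.78 above it without late senescence replicate 2. With a pseudocount of 0.1 the falls of the top 2 members were 10.53 and 9.68 log2 units, since the size of a change to 0 depends on the pseudocount.

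**Figure D3:**
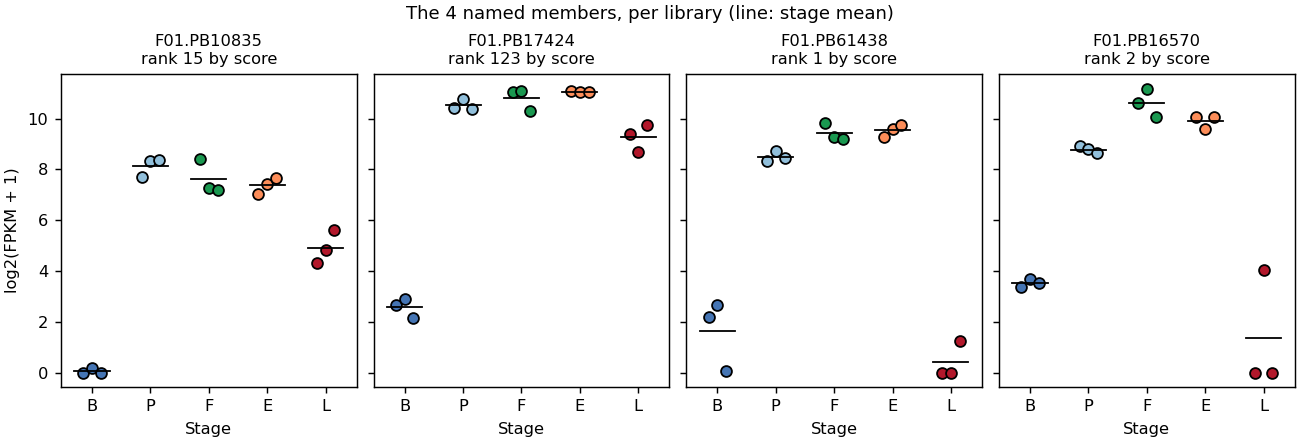
The 4 members with identifiers, as log2(FPKM + 1) in each of the 15 libraries (points, replicates 1 to 3 from left to right) and stage means (lines), with B for buds, P for partial blooming, F for full blooming, E for early senescence and L for late senescence. The 2 panels on the left show the largest rises from buds and the 2 on the right the largest falls into late senescence; F01.PB17424 stays at 406 FPKM or more in late senescence.

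Levels also differed within the raised period. The spread between the highest and the lowest of the 3 raised means had a median of 0.63 log2 units over members, against 0.48 over the genes that could be chosen. It was at most 0.5 in 57 members and over 2 in 7. It was at most 1 in 108 of the 150 members, against 79.4% of the genes that could be chosen. In partial blooming the median member already showed 93.4% of its log2 rise from buds to its highest stage, with a middle range of 79.7% to 100%. In early senescence the median member retained 85.3% of its log2 height over late senescence. The rule bounds the lowest raised stage, which favours high values of both shares.

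Which raised stage was highest was not fixed by the selection. Full blooming was highest in 61 members, early senescence in 48 and partial blooming in 41. Over the genes that could be chosen, full blooming was highest in 24.5%, early senescence in 36.7% and partial blooming in 38.9%. The most frequent order, in 43 members, put full blooming above partial blooming and early senescence lowest, an order found in 14.6% of the genes that could be chosen. Full blooming was the lowest raised stage in 17 members. These counts turned on full blooming replicate 3: without it, the same genes were highest in full blooming in 96 members and in partial blooming in 18. Without full blooming replicate 1 or 2, full blooming was highest in 39 members in both cases.

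Members of this set were lower in full blooming replicate 3 than in the rest of its stage. It was the lowest of the 3 libraries in 132 of 150 members, and in 40.5% of the genes that could be chosen. Its median difference from the mean of the other 2 libraries was -0.66 log2 units over members and 0.03 over the genes that could be chosen. It lay under all 3 partial blooming libraries in 94 members, against 29.8% of the genes that could be chosen. Full blooming replicates 1 and 2 did so in 8 and 23 members, against 37.7% and 38.1%. Replicates 1 and 2 lay above all partial blooming libraries in 105 and 91 members, against 31.6% and 33.7%. Replicate 3 did so in 19, against 42.5%. Both replicates 2 and 3 lay above all end libraries in 143 members, a contrast the selection used. For replicate 3 this held in 2748 of the 15763 genes that could be chosen. Nothing in the labels sets this library apart from the others of its stage. Across genes its mean correlation was 0.91 with partial blooming and 0.88 with its own stage, and the reason was not tested.

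Smaller shifts of the whole set appeared in other stages too. In buds, replicate 3 was the highest library in 87 members, against 29.4% of the genes that could be chosen, and its median difference from the other buds was 0.35 log2 units. In late senescence, replicate 3 was the highest in 95 members, against 41.9%, with a median difference of 0.38, against 0.11. Late senescence replicate 2 was the lowest in 93 members, against 58.1%, with a median difference of -0.44, against -0.19. In early senescence, replicate 3 was the highest in 95 members, against 37.7%, with a median difference of 0.17. In partial blooming, replicate 1 was the highest in 80 members, against 30.1%, and replicate 3 in 11, against 36.9%. Their median differences were 0.14 and -0.14. Members thus tended to deviate together. The deviations of 2 members from their stage means correlated at a median of 0.36 over the 15 libraries, against 0.04 for pairs of the other genes that could be chosen. These are descriptions over genes that share libraries.

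Spread between replicates was wider for members than for other genes of the raised period. The median SD of log2(FPKM + 1) in full blooming was 0.45 over members and 0.27 over the genes that could be chosen. In buds it was 0.44 and 0.22, and in late senescence 0.39 and 0.23, where members have lower levels. In partial blooming it was 0.19 and 0.16, and in early senescence 0.18 and 0.15. A wider spread makes calls harder to reach, and its part in the counts given next was not tested.

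Changes between raised stages were tested next, since the rule used the lowest of the 3 stages and not their order. The same libraries chose the members, and the comparisons share libraries, so each count is read only beside its background. In 115 members none of the 3 comparisons among raised stages passed the test (76.7%), against 64.7% of the genes that could be chosen. A missing call does not show that a level stayed constant.

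From partial to full blooming, limma called 3 members higher, against 0.980% of all tested genes and 1.51% of those that could be chosen. It called 0 lower, against 0.699% and 0.825%, and 1 member was lower at an unadjusted p under 0.05. No other tool was run. Without full blooming replicate 3, 9 members were called higher (6.0%), against 2.39% of all genes tested in that run. The largest rise, chosen after its values were seen, was in the member of rank 138. It was at 0.04, 0 and 0.09 FPKM in buds, at 6.62, 11.5 and 8.66 in partial blooming and at 36.5, 36.3 and 29.8 in full blooming. Early senescence gave 17.1, 16.6 and 20.6 FPKM and late senescence 2.79, 2.84 and 4.38. Its change from partial to full blooming was 1.85 ± 0.20 log2 units (SE; limma adjusted p of 0.000344), with no overlap between these stages.

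Between full blooming and early senescence, more members were called lower than higher. Limma called 24 members lower (16.0%), against 6.85% of all tested genes and 9.95% of those that could be chosen. It called 1 member higher (0.667%), against 8.78% and 9.81%. The median change of the 24 was -1.32 log2 units, and their median level went from 77.8 FPKM when fully open to 25.7 at early and 7.35 at late senescence. The lower members numbered 37 without full blooming replicate 3, 15 without full blooming replicate 2, and 13 and 15 without early senescence replicates 1 and 2. Of all genes tested in these 4 runs, 6.18%, 6.19%, 4.46% and 4.43% were called lower. The higher members numbered 0 without full blooming replicate 3 or early senescence replicate 1 or 2. They numbered 2 without partial blooming replicate 1 or 2 or late senescence replicate 3. Without late senescence replicate 1 they numbered 3, and without replicate 2 of that stage 4. Of 46525 to 47142 genes tested in these runs, 2982 to 4338 were called higher.

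Among called members the largest fall was in that of rank 78, chosen after its values were seen. It was at 5.48, 7.14 and 3.84 FPKM in buds, at 106, 117 and 101 in partial blooming and at 79.2, 95.8 and 77.2 in full blooming. Early senescence gave 15.3, 14.3 and 23.3 FPKM and late senescence 6.59, 4.78 and 5.44. The change from full blooming to early senescence was -2.21 ± 0.21 log2 units (SE; limma adjusted p of 1.44e-05). Its early senescence libraries lay nearer to the end stages than to full blooming, without overlap with either. The single member called higher, of rank 112, went from 34.6, 27.2 and 15.5 FPKM in full blooming to 77.5, 77.5 and 61.7 in early senescence (1.51 ± 0.38 log2 units, SE; limma adjusted p of 0.0151).

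Over the whole raised period, from partial blooming to early senescence, calls were made in both directions. Limma called 9 members higher (6.0%), against 12.8% of all tested genes and 16.0% of those that could be chosen. It called 20 lower (13.3%), against 13.7% and 16.8%. In a fit on these 2 stages alone, 26 members were higher (17.3%), against 14.7% of all tested genes, and 38 lower (25.3%), against 19.4%, so the position against the background turned with the fit. The 9 rising members had medians of 8.92, 26.7 and 45.0 FPKM over the raised stages and of 2.69 once senescence was late. The 20 falling members had medians of 54.0, 46.6, 18.0 and 5.47 FPKM in the same order. Without partial blooming replicate 1 or early senescence replicate 1, 13 members were called lower (8.67%), against 10.6% and 8.83% of all genes tested. The median change of all members was -0.13 log2 units as deposited and 0.01 with median-ratio scaling, so its direction turned with the scaling.

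The set did not return to its bud level in every gene. The score used the higher end stage, but genes under 0.1 FPKM in all late senescence libraries were removed and those as low in buds were not, which tilts the order of the ends towards late senescence. Late senescence was higher than buds in 91 of 150 members, against 48.4% of the genes that could be chosen. Limma called 51 members higher in late senescence (34.0%), against 22.0% of all tested genes and 26.2% of those that could be chosen. It called 14 lower (9.33%), against 20.4% and 26.8%. The means of the end stages differed by less than 1 log2 unit in 91 members, and late senescence was higher by over 1 unit in 42 and lower in 17. With no gene removed, the 150 highest scores held 76 genes higher in late senescence than in buds, with 43 called higher (28.7%) and 33 lower (22.0%). Of the 15934 genes that could then be chosen, 25.9% and 27.4% were. Higher and lower calls thus differed less in number when no gene was removed. The calls numbered 44 higher and 11 lower with median-ratio scaling, against 22.6% and 20.2% of all genes tested in that run. Quantile normalization gave 46 higher and 16 lower, against 20.6% and 24.3%. The lower calls numbered 9 without bud replicate 1 or 3, against 15.9% and 19.1% of all genes tested. Without late senescence replicate 1 they numbered 7, against 7937 of the 46599 genes tested.

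The 51 members called above their bud level had a median of 5.53 FPKM in buds, of 114, 120 and 81.9 over the raised stages and of 22.6 in late senescence. The 14 members called below it had medians of 13.5, 61.5, 86.3, 114 and 3.09 FPKM from buds through to late senescence, so their highest median was in early senescence. The 85 members with no call between the ends had medians of 7.53 FPKM in buds and 7.94 in late senescence, and of 41.0, 41.9 and 40.0 in the raised stages. Since the groups were formed by these levels, their medians show size and are not a test. F01.PB17424 had the largest excess over buds. The largest deficit, in the member of rank 47, went from 12, 11.1 and 26.4 FPKM in buds to 1.69, 0 and 0 in late senescence (-3.55 ± 0.47 log2 units, SE; limma adjusted p of 5.79e-05).

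**Figure D4:**
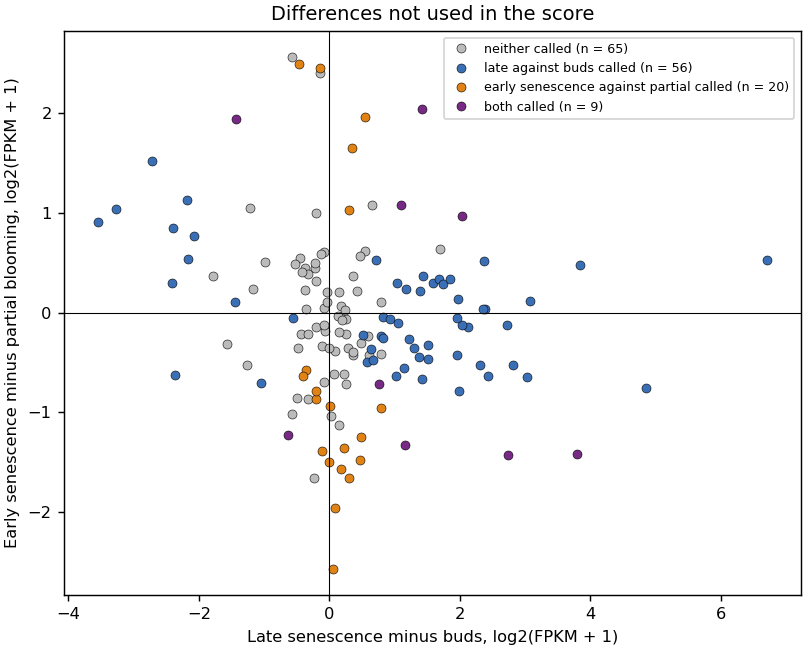
Change from partial blooming to early senescence against the difference of late senescence from buds for each of the 150 members, both as differences of stage means of log2(FPKM + 1), with colours for members called by limma at an adjusted p under 0.05. Calls between the ends lie mostly on the right, with 51 higher and 14 lower, which were 43 and 33 when no gene was removed for low late senescence values.

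To see the course in libraries that had not chosen the genes, the rule was applied with 1 replicate number left out of every stage, and the score was computed in the 5 libraries left out. The 150 genes chosen without replicate 1 had a median score of 1.22 in the replicate 1 libraries, and 140 scored above 0, against 12.6% of the genes that could be chosen. Without replicate 2 the median was 1.48 in the libraries left out and 142 scored above 0, against 16.5%. Without replicate 3 the median was 0.83 and 135 scored above 0, against 11.9%. Scores above 1 were reached by 103, 118 and 59 of the genes in these 3 runs, against 1.24%, 2.24% and 0.644% of the genes that could be chosen. The run with the lowest values is the one whose left-out libraries include full blooming replicate 3. The removal of genes under 0.1 FPKM in late senescence took F01.PB61438 out of the run without replicate 3. It took F01.PB16570 out of the run without replicate 2. In each case the late senescence libraries that remained were listed at 0. The runs share libraries with each other, so they are not independent. Libraries of a stage may be technical replicates, so those left out may not be independent of those that chose the genes. A few genes chosen in 10 libraries were far under 0 in the other 5, down to -4.27 for a gene that scored 1.25 in the 10.

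**Figure D5:**
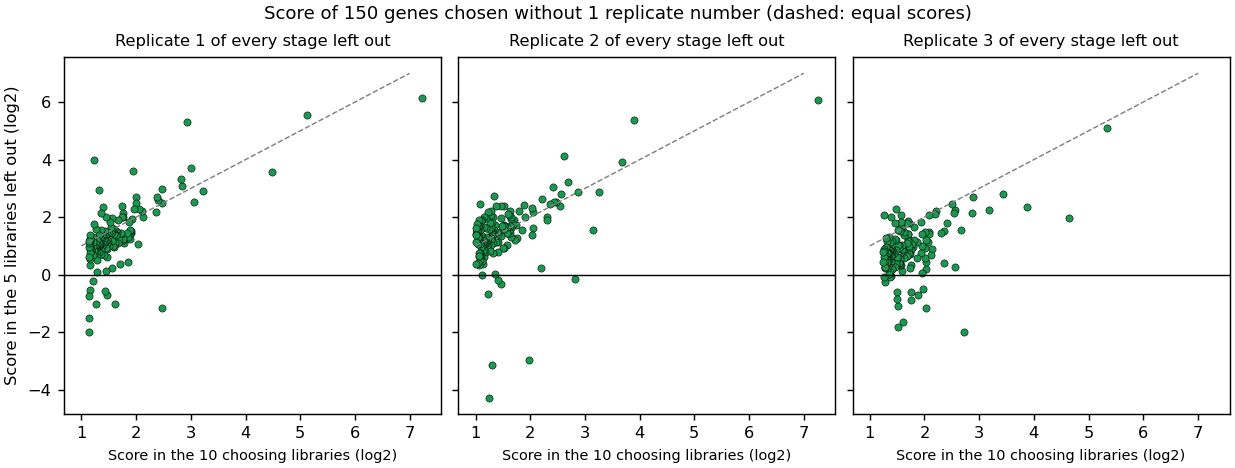
Score of the 150 genes chosen without replicate 1, 2 or 3 of every stage, in the 10 libraries that chose them (x axis) and in the 5 libraries left out (y axis), both in log2 units, with a dashed line for equal scores. In each panel at least 135 points lie above 0, and 109, 68 and 138 points lie under the dashed line from left to right.

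Membership itself moved with single libraries. With 1 library left out in turn, 127 to 144 of the 150 genes were chosen again, fewest without bud replicate 3. With 1 replicate number left out of every stage, 118 or 119 were. The courses of members were alike but not identical: over the 15 libraries, pairs of members correlated at a median of 0.84, from 0.15 to 0.996, a likeness that the selection brings about. Of 11175 pairs, 23 correlated above 0.99, and 33 members took part in them. Whether some of these identifiers are copies or transcripts of 1 gene cannot be read from the table.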

How the data were processed

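Per the labels, total RNA of whole flowers was sequenced, with 3 libraries for each of 5 stages. The authors deposited 1 table of FPKM values with 1 column per library, to 2 decimals. The unit is taken from the table's name and its values. The submitters' processing notes list DESeq 1.18.0, HTSeq 0.6.1, TopHat2 2.0.12 and Bowtie2 2.2.3, with no role or order. Filters, the reference and its annotation: not given in the sources used here. Depth is unknown, so no counting interval is given.

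Columns were matched to libraries by the column code in the labels. The rule was applied to the FPKM values as deposited. Tests used limma 3.58.1 in R 4.3.3 on log2(FPKM + 1), with a mean-variance trend and 1 fit over all 15 libraries, two-sided. Changes on this scale understate those of low genes. The script was tested on simulated data. Other steps used Python 3.11.15 with numpy 2.4.6 and pandas 2.3.3.

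The members, comparisons and alternatives were chosen with earlier results of these data known. The 4 identifiers are the 2 largest rises from buds and the 2 largest falls into late senescence among members with no overlap between raised and end libraries and at least 10 FPKM in each raised stage. Lists of gene families and organ markers were written, but the identifiers carry no names to match them with, so none was counted.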

Additional observations from a re-analysis of the deposited data

How the results depend on the processing

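Of 515 values recomputed, 463 stayed the same and 52 moved. Counts were taken as the same within 1.5 times. The median score and the gaps of the 4 named members were taken as the same within the SD between libraries of a stage. Only these scores and gaps could reverse in sign. Since they were selected to be large, nothing is read from the 0 reversals found. Medians of change under the scalings are not among the 515 values, and that from partial blooming to early senescence turned from -0.13 to 0.01. The causes were not tested. Following the members through other libraries with the list kept, and calling late senescence against buds with no gene removed (33 lower), were added after the data were seen, and the other alternatives were set earlier. With library quality weights, 22 members were higher in full than in partial blooming, 4 were higher and 57 lower in early senescence than in full blooming, and 18 were higher and 39 lower than in partial blooming. Of all tested genes these shares were 5.49%, 14.1%, 11.7%, 18.0% and 25.4%. Fits on 2 stages alone gave 0, 4, 15, 26 and 38 for these counts, against 0.0887%, 6.49%, 4.25%, 14.7% and 19.4% of all tested genes, and 6 members lower in late senescence than in buds, which were 8 with no filter. A pseudocount of 0.1 gave 5 members higher in early senescence than in partial blooming, against 12.4% of all tested genes. Testing only genes at 5 FPKM or more in the raised stages gave 3 higher in early senescence than in full blooming, against 10.7%. With both bud replicate 2 and full blooming replicate 3 left out, 9 members were higher in full than in partial blooming, against 1156 of 45991 genes tested. In that run 0 members were higher and 39 lower in early senescence than in full blooming, against 4046 and 2883 genes. The rule without these libraries gave 99 members highest in full blooming and 18 in partial blooming, which held 26 with median-ratio scaling and 25 with stage medians. The rule under other settings kept 124 to 142 members, with median scores from 1.31 to 1.65.

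Leaving out libraries gave 2 to 9 members higher in full than in partial blooming, with shares of all tested genes from 0.403% to 2.39%. It gave 0 to 4 higher in early senescence than in full blooming, against 2982 to 4338 of the genes tested in each run. The lower members numbered 13 to 37 (8.67% to 24.7%), against 4.46% and 6.18% of all tested genes in those 2 runs. From partial blooming to early senescence, 13 to 26 were lower (8.67% to 17.3%). The runs with 13 had 8.83% and 10.6% of all tested genes lower, and that with 26 had 17.8%. Between late senescence and buds, 7 to 15 were lower. The run with 7 had 7937 of 46599 genes lower, and that with 15 had 23.9%. Members highest in partial blooming ranged from 18 to 57, and in full blooming from 43 to 93 with the rule applied again and from 39 to 96 with the list kept.

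No consistent pairing by replicate number was seen, although correlations this weak cannot decide whether libraries were paired. Of 30 pairs with the same number, 7 deviated together at a correlation over 0.1, with values from -0.37 to 0.37 over all 30. A best match with their own number was found for 4 of 15 libraries. With a replicate block, 2 members were higher in early senescence than in full blooming instead of 1, against 8.16% of all tested genes. No other count moved by over 1.5 times with the block. The unknown depth limits what can be said of low values.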
